A study of Homo sapiens with 12 samples.

Results

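HCT116 is an established human colorectal carcinoma line, and PANC1 is an established human line from a ductal carcinoma of the pancreas. The comparison described here sets the vehicle-treated cells of the 2 lines against each other, so it asks how the lines differed before any inhibitor acted on them. It uses 4 of the 12 samples of the series: HCT116 in 0.05% DMSO for 12 h, HCT116 in 0.05% DMSO for 96 h, PANC1 in 0.05% DMSO for 12 h and PANC1 in 0.05% DMSO for 96 h. The other 8 samples are the same lines at the same times under 10 uM ICG-001, which keeps β-catenin from binding the coactivator CBP, or under 10 uM C646, an inhibitor of the acetyltransferase activity of p300 and CBP. All 4 groups shared the DMSO, and no untreated culture without DMSO was used. The 12 h cultures were treated at a higher confluency than the 96 h cultures, so time and density cannot be told apart. Each of the 4 is 1 deposited column in which the authors had averaged 2 arrays, as in the other columns except that of PANC1 under ICG-001 at 12 h, which averages 3. Every group thus holds 1 value per gene, so the spread between replicate cultures is not in the values used here, and the text gives sizes and whether the 12 h and 96 h pairs showed the same difference.

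As background, HCT116 carries an activating mutation of β-catenin, whereas PANC1 carries a deleted CDKN2A gene. Carcinoma cells keep or lose the adhesion and polarity proteins of the epithelium they came from, and cells that lose them often gain proteins of mesenchymal cells such as vimentin and N-cadherin. HOX genes, which set the position of a tissue along the body axis in the embryo, often stay on in a line in the pattern of its origin.

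Signals are given as array fluorescence units after the 12 columns had been brought to a common distribution, and a difference is the log2 signal of HCT116 minus that of PANC1, averaged over 12 h and 96 h unless a time is named. A gene was called higher in a line when its signal was at least 2-fold higher there at 12 h and again at 96 h. Of 34687 rows of the table, 19011 rose above a detection limit of 140.1 units in at least 1 of the 4 DMSO columns. Of these, 729 (3.83%) were called higher in HCT116 and 661 (3.48%) were called higher in PANC1, together 1390 (7.31%). The median size was 2.82-fold for the genes higher in HCT116 and 2.81-fold for those higher in PANC1. At 4-fold, 131 genes (0.689%) were higher in HCT116 and 141 genes (0.742%) were higher in PANC1. The median difference over the tested genes was -0.01, a value that bringing the columns to a common distribution sets near 0. The signal is that of a whole culture, in which fewer cells with a transcript and less RNA per cell cannot be told apart.

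The time points differed far less than the lines. Between the 12 h and 96 h columns of HCT116, 56 tested genes (0.295%) differed 2-fold, and between those of PANC1 23 genes (0.121%) did. Across the tested genes the line difference at 12 h correlated with that at 96 h with a Pearson r of 0.92 and a Spearman rho of 0.83, a description over genes that share the same 4 columns. The columns of 1 line correlated at 0.99 with each other, and those of different lines at 0.91 to 0.92. A total of 1034 rows were above the limit in both HCT116 columns and in neither PANC1 column, and 951 rows showed the opposite. For such genes the fold is given as a bound, with the dim line set at the limit.

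The widest contrast was TM4SF1, a cell-surface tetraspanin-like protein. Its signal was 18333 and 19496 in PANC1 at 12 h and 96 h against 129 and 128 in HCT116, at least 135-fold. BASP1, a membrane-bound signalling protein, read 12032 and 10596 in PANC1 against 148 and 145 in HCT116. Vimentin (VIM), the intermediate filament of mesenchymal cells, read 17542 and 19403 in PANC1 against 341 and 321 in HCT116, a 55.7-fold difference. These 3 genes were near or below background in HCT116 or, for VIM, low but measured there. TGFBI, a matrix protein induced by TGF-β, read 7319 and 9384 in PANC1 against 154 and 156. LXN, a carboxypeptidase inhibitor, read 6910 and 7637 against 147 and 140. CCL2, the chemokine that attracts monocytes, read 5179 and 5993 against 121 and 128, at least 39.8-fold. All 3 lay at or near the limit in both HCT116 columns. The other 6 of the 12 widest differences in this direction were DLL3, an inhibitory Notch ligand (at least 31.2-fold), the lipid carrier APOE (at least 28.7-fold), the phosphatase inhibitor PPP1R14A (28.1-fold), AGR2, a disulphide isomerase of secretory cells (at least 22.3-fold), the serine protease PRSS23 (23.8-fold) and the matrix-associated protein CCN1 (20.5-fold).

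In the opposite direction GTSF1, a gametocyte factor of the piRNA pathway, led with 5857 and 5312 in HCT116 against 139 and 134 in PANC1, at least 39.8-fold. KITLG, the ligand of the KIT receptor, read 3642 and 4945 against 148 and 142, a 29.3-fold difference. MTAP, the methylthioadenosine phosphorylase of the methionine salvage pathway, read 3096 and 3542 against 125 and 125, at least 23.6-fold. All 3 were bright in both HCT116 columns, and in PANC1 GTSF1 and MTAP were under the limit and KITLG lay just above it. The neuropeptide NMU was at least 19.5-fold higher, the embryonic globin HBE1 at least 17.4-fold, the epithelial transport protein MAL2 at least 18.5-fold and the melanoma antigen MAGEB2 at least 19.3-fold. PDP1, the pyruvate dehydrogenase phosphatase, was 19.3-fold higher, and the annexin ANXA3 was 19.1-fold higher. NDRG1, a gene induced by hypoxia and differentiation, read 2480 at 12 h and 6364 at 96 h in HCT116 against 184 and 281 in PANC1, so it was the member of the 12 that moved most with time. RAB25, a small GTPase of epithelial membrane recycling, read 2131 and 2299 against 132 and 122, at least 15.8-fold.

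**Figure D1:**
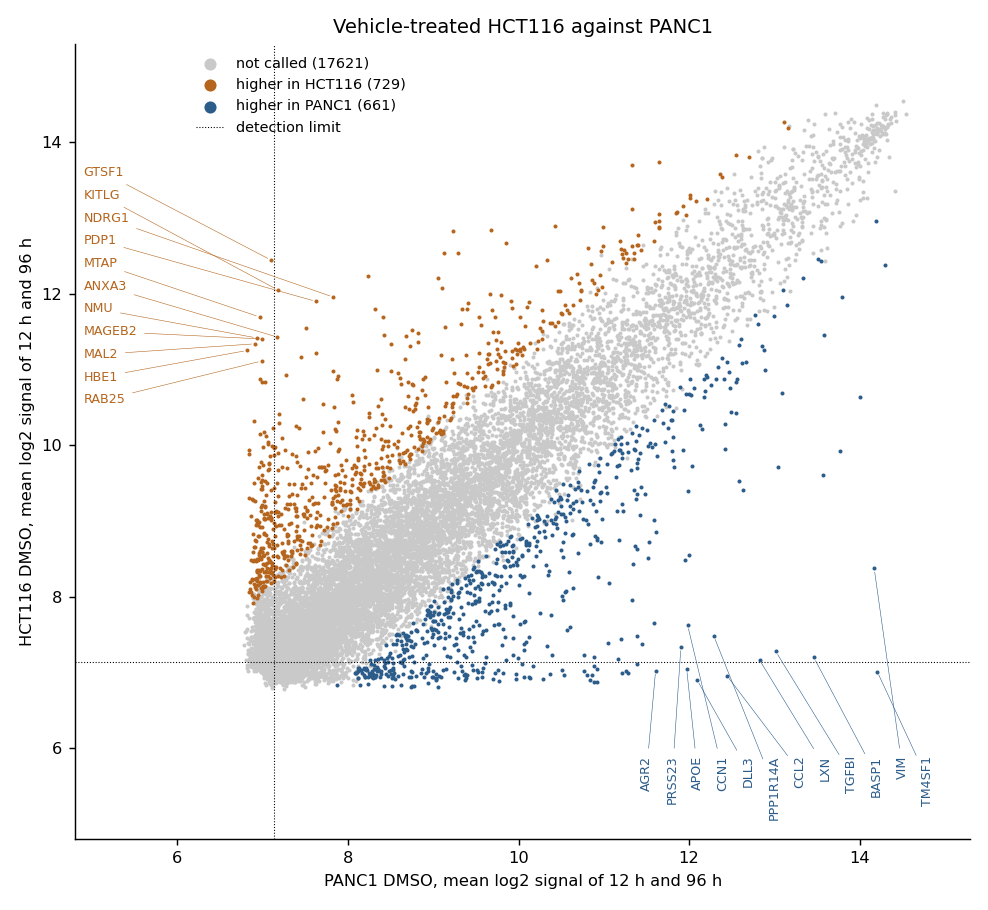
Mean log2 signal of the 12 h and 96 h DMSO columns in PANC1 (x axis) and HCT116 (y axis) for the 19011 tested genes, 1 point per gene. The 729 genes called higher in HCT116 lie above the diagonal, the 661 called higher in PANC1 lie below it, and 11 of the 12 widest differences in the HCT116 direction and all 12 in the PANC1 direction are named, with TM4SF1 at the lower right.

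Epithelial genes were brighter in HCT116, and mesenchymal genes were brighter in PANC1 in part. Of the 40 gene lists examined, the epithelial list held the most called genes. Over all tested genes, 3.83% were called higher in HCT116 and 3.48% higher in PANC1, the shares to set beside each list. Of 41 epithelial adhesion and polarity genes on the array, 39 were above the limit, 19 were called higher in HCT116 and 1 was called higher in PANC1. The median difference over all 41 was 1.11, against -0.002 over all rows of the table. EPCAM, the epithelial cell adhesion molecule, read 7184 and 7525 in HCT116 against 798 and 842 in PANC1. E-cadherin (CDH1), the adherens junction cadherin, read 1033 and 1227 against 290 and 345. CLDN7, a tight junction claudin, read 1782 and 1884 against 366 and 476. PANC1 thus still gave a signal above the limit for these 3 genes, at a lower level in both columns. Other members were not above the limit in PANC1. These were MAL2 and RAB25, named above, the membrane serine proteases ST14 (at least 4.50-fold) and PRSS8 (at least 3.90-fold), the junction scaffold TJP3 (at least 5.42-fold), the polarity protein CRB3 (at least 2.78-fold) and the splicing regulator ESRP1 (at least 2.09-fold). Desmosome genes shared the direction, with DSG2 at 2238 and 2886 against 397 and 455, DSC2 at 419 and 419 against 156 and 145, and DSP at 350 and 416 against 161 and 163. Of the 39 members above the limit 5 had a difference below 0, among them CLDN4, a further claudin, at -0.05. The member called in the other direction was CLDN1, another tight junction claudin, which read 826 and 865 in PANC1 against 126 and 128 in HCT116, at least 6.04-fold.

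Of 34 mesenchymal genes on the array, 24 were above the limit, 8 were called higher in PANC1 and 1 was called higher in HCT116, and the median was -0.28 over all 34 and -0.59 over the 24. N-cadherin (CDH2), the cadherin of mesenchymal and neural cells, read 1504 and 2117 in PANC1 against 127 and 122 in HCT116, at least 12.7-fold. The receptor tyrosine kinase AXL read 2114 and 2548 against 451 and 410. VIM and TGFBI, given above, also belong to this list, as do SPARC, a matrix protein (at least 5.44-fold), GNG11, a G protein subunit (at least 5.44-fold) and NT5E, an ecto-nucleotidase (5.08-fold). Not all mesenchymal markers were bright in PANC1. ZEB1, a repressor of E-cadherin, read 161 and 148 in PANC1 against 113 and 114 in HCT116, close to the limit. The related repressors ZEB2 and SNAI2 read 148 and 131, and 129 and 134, in PANC1. Fibronectin (FN1) read 124 and 124 in PANC1 against 123 and 123 in HCT116, under the limit in all 4 columns. TWIST1, a transcription factor of mesenchymal cells, was above the limit in HCT116 alone, at 156 and 188 against 120 and 134 in PANC1, and was not called. CALD1, an actin-binding protein of contractile cells, went the other way with 798 and 861 in HCT116 against 155 and 156 in PANC1.

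**Figure D2:**
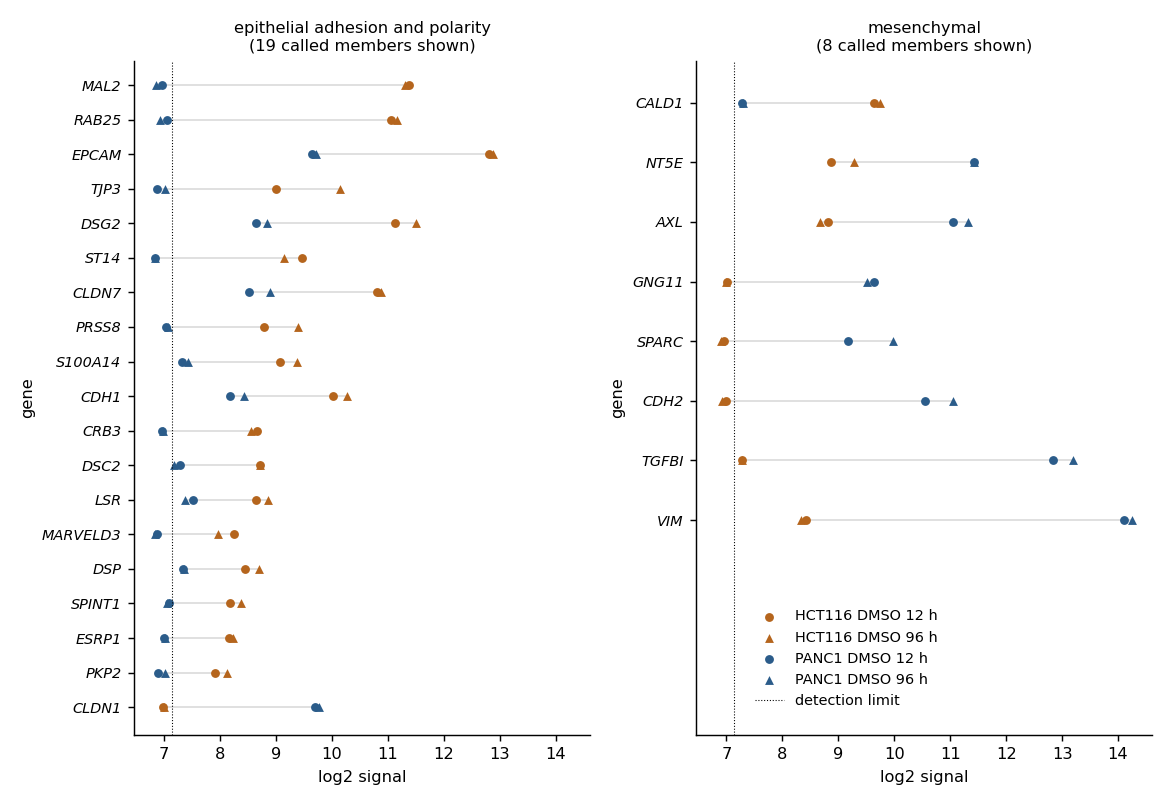
Log2 signal (x axis) of 19 epithelial and 8 mesenchymal genes that were called (y axis), 1 called gene of each list not being shown, with HCT116 in brown and PANC1 in blue, circles for 12 h and triangles for 96 h. The dotted line is the detection limit of 140.1 units on the log2 scale. CLDN1 and CALD1 are the called members that lie opposite to the rest shown of their lists.

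The markers of the tissues the lines came from did not separate them. Of the 8 defining markers of colon epithelium, 2 were above the limit in both HCT116 columns and 4 in both PANC1 columns. The PANC1 count includes CDH17, at 143.5 and 141.4, and GPA33, at 140.9 and 151.0, which lay close to the limit. In HCT116 CDH17 read 130.6 and 131.0 and GPA33 145.6 and 139.2, so the counts do not rank the lines. CDX2, the intestinal homeobox factor, read 443 and 356 in HCT116 against 211 and 217 in PANC1, under the threshold for a call. CDX1, VIL1, CDH17, LGALS4 and KRT20 were under the limit in both HCT116 columns, with KRT20 at 139 and 137. Of the 8 markers of pancreatic duct, 5 were above the limit in both columns of each line. KRT19, the keratin of simple ducts, read 7894 and 8515 in HCT116 beside 12274 and 12180 in PANC1, and the progenitor factor SOX9 read 1117 and 1581 in HCT116 beside 1366 and 1324 in PANC1. MUC1, a ductal mucin, was 3.72-fold higher in PANC1, and mesothelin (MSLN) was 5.53-fold higher in HCT116. Among the 6 acinar markers CEL alone was above the limit in both columns of a line, and none of the 5 endocrine markers was. The defining markers of colon epithelium were thus mostly absent from HCT116, and those of pancreatic duct were as frequent in HCT116 as in PANC1.

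Over the longer lists the result was similar. Of 32 colon epithelium genes on the array, 14 were above the limit, CA2, a carbonic anhydrase (7.11-fold), was called higher in HCT116, and AGR2 and the trefoil factor TFF3 (at least 2.23-fold) were called higher in PANC1. Of 22 mucin and secretory genes AGR2, TFF3 and MUC1 were called higher in PANC1 and none in HCT116. Of 22 transcription factors of the gut endoderm, 4 were called higher in HCT116 and 2 in PANC1. FOXA2, a pioneer factor of the endoderm, read 1008 and 1144 in PANC1 against 122 and 122 in HCT116. GATA5 read 953 and 1050 in PANC1 against 118 and 123. ELF3, an epithelium-specific ETS factor, read 798 and 1174 in HCT116 against 215 and 260, and the epithelial ETS factor EHF was at least 2.56-fold higher. The Krüppel-like factor KLF5 read 405 and 760 in HCT116 against 140 and 143, and KLF4 read 525 and 1115 against 201 and 197. The endodermal factors thus split, with FOXA2 and GATA5 on in PANC1 and undetected in HCT116. The blood and stromal list gave 5 of 15 genes above the limit, and its leukocyte, endothelial and fibroblast markers PTPRC, PECAM1, VWF, DCN and LUM were at background in all 4 columns. CD68, a lysosomal protein used as a macrophage marker, was the 1 member called, with 3428 and 2505 in PANC1 against 295 and 448 in HCT116. CD14, a monocyte marker, read 152 and 169 in PANC1 against 130 and 141 in HCT116.

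The HOX clusters differed in opposite directions. HOXA9 read 1345 and 1205 in HCT116 against 120 and 119 in PANC1, at least 9.09-fold. Its neighbour HOXA10 read 381 and 380 against 123 and 126, and HOXA5 read 1043 and 903 against 439 and 454, 0.99 at 96 h and so just under the threshold. In the HOXA cluster 2 of 11 genes were called, both higher in HCT116. In the HOXC cluster all 3 called genes of 9 were higher in PANC1, with HOXC13 at 2113 and 2168 against 299 and 284, HOXC8 at 582 and 629 against 172 and 158, and HOXC6 at 790 and 908 against 290 and 339. The HOXB cluster followed the same direction, with HOXB2 at 634 and 936 in PANC1 against 136 and 129, and HOXB5 at 3799 and 4228 against 1383 and 1948. HOXB7, of the same cluster, read 1436 and 1153 in HCT116 beside 1340 and 1423 in PANC1. No HOXD gene was called, and 5 of its 9 genes were under the limit in all 4 columns. The medians over all members on the array were 0.22 for HOXA, -0.44 for HOXB, -0.92 for HOXC and -0.03 for HOXD.

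**Figure D3:**
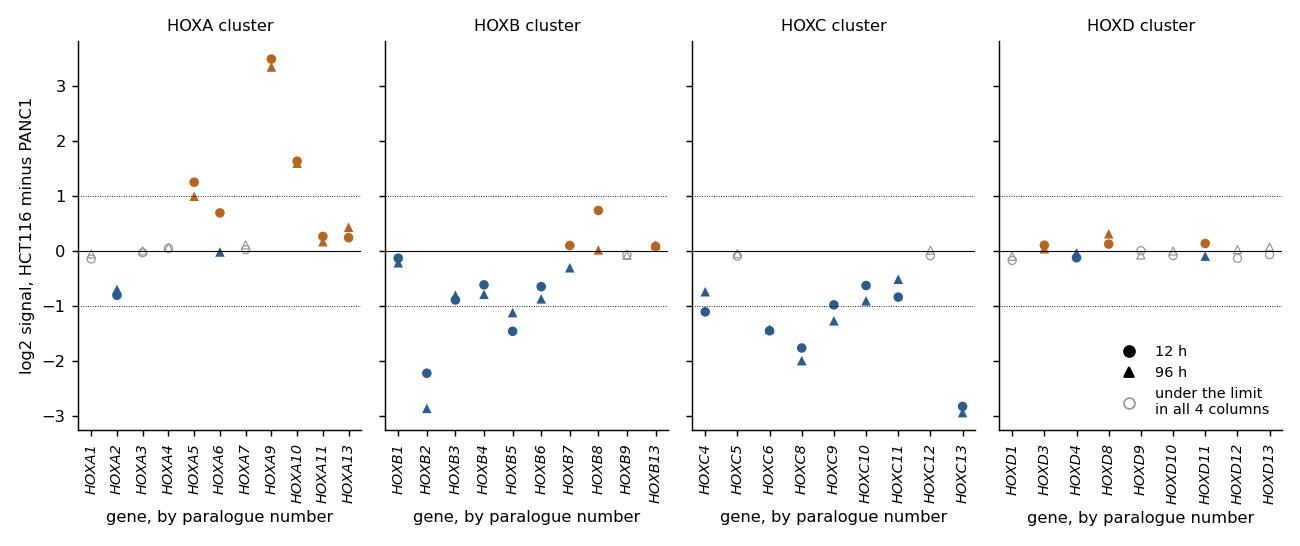
Log2 signal of HCT116 minus PANC1 (y axis) at 12 h (circles) and 96 h (triangles) for the genes of the 4 HOX clusters in the order of their paralogue numbers (x axis). Brown points are positive and blue points negative, open grey points were under the limit in all 4 columns, and dotted lines mark 2-fold. HOXA9 is the highest point, and HOXC13 and HOXB2 are the lowest.

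The integrin calls all lay in PANC1, and the calls of the claudin and S100 lists were split. Of 17 integrins 3 were called, all higher in PANC1, beside 3.48% of all tested genes in that direction. ITGAV read 3614 and 3614 in PANC1 against 784 and 893 in HCT116, ITGB5 read 2390 and 2996 against 772 and 890, and the collagen receptor subunit ITGA2 read 2000 and 1756 against 571 and 847. Of 37 extracellular matrix genes, COL5A2 (13.9-fold), the latent TGF-β binding protein LTBP2 (6.99-fold) and COL18A1 (5.60-fold) were higher in PANC1, and the proteoglycan VCAN was higher in HCT116 (at least 4.43-fold). Among 20 keratins KRT80 alone was called, 4.26-fold higher in PANC1, while KRT8 differed by -0.69 and KRT18 by less than 0.01. In the claudin list of 19 genes CLDN1 and CLDN11 were higher in PANC1 and CLDN7 in HCT116. In the S100 list of 17 genes S100A3 was higher in PANC1 (2.61-fold) and S100A14 in HCT116 (3.62-fold).

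Targets of the transcriptional coactivators YAP and TAZ, which relay cell density and stiffness to the nucleus, were called in 1 direction. The list also holds WWTR1, the gene of TAZ, which is not a target. Of its 22 members on the array 7, WWTR1 included, were higher in PANC1, beside 3.48% of all tested genes, and none in HCT116. The median over all 22 was -0.53. CCN1 read 4362 and 3755 in PANC1 against 190 and 204 in HCT116. CCN2 read 2380 and 3030 against 162 and 198, a difference of -3.91. WWTR1, which encodes TAZ itself, read 612 and 553 against 184 and 204. The other called members were AXL and NT5E, shared with the mesenchymal list, CRIM1 (3.77-fold) and FJX1 (2.18-fold). ANKRD1, a further target, differed by -0.53 and AMOTL2 by -0.21, and neither was called.

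Among receptor tyrosine kinases AXL, EPHA2 (2.54-fold) and MERTK (2.11-fold) were higher in PANC1, and FGFR3 (2.70-fold) and EPHA1 (at least 3.21-fold) were higher in HCT116, of 34 on the array. Over all tested genes 3.83% were called in HCT116 and 3.48% in PANC1. Of 35 growth factor ligands 2 were called higher in PANC1 and 5 in HCT116. Beside KITLG these were BMP4, which read 1763 and 1905 in HCT116 against 128 and 126 in PANC1, the EGF receptor ligands EREG (949 and 746 against 142 and 157) and TGFA (448 and 722 against 157 and 157), and FGF19 (at least 3.25-fold). The lymphatic growth factor VEGFC (at least 3.97-fold) and the activin subunit INHBB (2.40-fold) were higher in PANC1. In the TGF-β receptor and SMAD list SMAD3, the transducer of TGF-β signals, read 2929 and 2326 in PANC1 against 585 and 795 in HCT116. BMPR2 was 2.26-fold higher in PANC1, whereas SMAD4 differed by 0.76 in the direction of HCT116 and was not called.

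The genes of the complex that ICG-001 and C646 target were measured in both lines. The coactivator CREBBP, which encodes CBP, read 514 and 491 in HCT116 beside 543 and 587 in PANC1, a difference of -0.17. EP300, which encodes p300, read 191 and 178 in HCT116 beside 360 and 313 in PANC1, a difference of -0.86 that did not reach the threshold. β-catenin (CTNNB1), the WNT effector, read 631 and 561 in HCT116 against 228 and 223 in PANC1. Its DNA-binding partner TCF7L2 read 614 and 827 against 248 and 215. So the effector and its partner were 2.64-fold and 3.09-fold brighter in HCT116, and the coactivators were not called in either line. EP300 was dim in HCT116, and the size of its difference depended on the background. With normexp background correction the differences were -1.41 for EP300, -0.21 for CREBBP, 1.92 for CTNNB1 and 2.17 for TCF7L2. CTNNB1 and TCF7L2 were the only called members among 15 genes of the WNT transcription complex, and LEF1 was under the limit in all 4 columns.

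The list of feedback targets of WNT signalling also holds MYC and CCND1, targets that are not feedback regulators. Of its 13 members 3, MYC included, were called, all higher in HCT116, beside 3.83% of all tested genes in that direction. The median over all 13 was 0.28. AXIN2, an inhibitor induced by the pathway, read 800 and 658 in HCT116 against 145 and 143 in PANC1. RNF43, a ubiquitin ligase that removes WNT receptors, read 331 and 318 against 121 and 127. The MYC oncogene read 3274 and 4384 against 1017 and 1215. CCND1, with 4258 and 4648 against 2949 and 3318, was not called. Of 11 secreted WNT antagonists DKK3 (at least 10.6-fold) and SFRP1 (at least 5.05-fold) were higher in PANC1 and at background in HCT116, while DKK1 was bright in both, at 3769 and 5284 in HCT116 beside 5033 and 6307 in PANC1. Ligands and receptors differed little, with WNT3A higher in HCT116 and WNT5B higher in PANC1 among 18 ligands, and FZD9 alone called, higher in PANC1, among 23 receptors and destruction complex genes.

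Of 11 cyclin-dependent kinase inhibitors and RB genes 2 were called, both higher in HCT116, beside 3.83% of all tested genes in that direction. The median over all 11 was 0.44. CDKN1A, the p21 inhibitor of cyclin-dependent kinases, read 1918 and 2039 in HCT116 against 546 and 827 in PANC1. CDKN1C, the related inhibitor p57, was 2.28-fold higher in HCT116. CDKN2A read 308 and 241 in HCT116 against 123 and 123 in PANC1, and was not called, since it passed 2-fold at 12 h alone. RB1, the retinoblastoma gene, differed by 0.09.

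Interferon-stimulated genes were called in PANC1 in 3 of 25, beside 3.48% of all tested genes, and in HCT116 in none. IFIT2 read 1094 and 879 in PANC1 against 150 and 150, IFIT1 read 1010 and 831 against 217 and 243, and IFITM1, an antiviral membrane protein, read 638 at 12 h and 1809 at 96 h against 135 and 183. Of 21 antigen presentation genes the peptidase ERAP2 alone was called, 2.41-fold higher in PANC1. B2M, the light chain of MHC class I, differed by -1.17 at 12 h and -0.86 at 96 h, and HLA-B by 0.96 and 1.94, so each passed 2-fold at a single time. HLA genes are polymorphic, and the match of the probes to the alleles of each line was not tested. Among 23 cytokines CCL2 and CCL5 were higher in PANC1 and CXCL16 in HCT116.

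Of 21 glycolysis genes 5 were called, all higher in HCT116, beside 3.83% of all tested genes in that direction, and the median over all 21 was 0.23. The glucose transporter SLC2A1 read 3090 and 4094 in HCT116 against 576 and 730 in PANC1, and SLC2A3 read 666 and 1303 against 129 and 143. ALDOC, an aldolase, read 1696 and 4620 against 213 and 549, so it was brighter at 96 h than at 12 h in both lines. Hexokinase 2 (HK2) was 4.16-fold higher and PFKM 2.61-fold, while LDHA differed by -0.27 and GAPDH by 0.23. Of 39 xenobiotic genes 6 were higher in HCT116 and 2 in PANC1, and the median over all 39 was 0.08. Among the 6 were the vitamin D hydroxylase CYP24A1 (938 and 1027 against 115 and 114) and the transporter ABCC2 (at least 5.05-fold). CYP1B1, a cytochrome that oxidises oestrogens and polycyclic hydrocarbons, was the widest of the 2 that went to PANC1, at 2706 and 2892 against 166 and 167.

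Further lists held single contrasts. In a list of 27 cancer testis antigens and other genes, the antigens MAGEB2 and MAGEA6 (at least 2.28-fold) were higher in HCT116. Of its other genes, BEX2 (5.53-fold) was higher in HCT116 and TSPYL5 (at least 3.79-fold) in PANC1. MAGE genes have near-identical copies, so their signals are uncertain. Of 22 stemness genes PROM1, the CD133 antigen, read 1162 and 1100 in HCT116 against 127 and 122 in PANC1, and CD44 read 8101 and 7052 in PANC1 against 2254 and 2678. CD24 (3.19-fold) and LIN28B (at least 2.60-fold) were also higher in PANC1, and KLF4 in HCT116. Of 20 neural genes DPYSL3 (at least 7.21-fold) was higher in HCT116 and nestin (NES, 3.53-fold) in PANC1, and SCG2, a secretogranin, was 3.98-fold higher in HCT116 among 19 endocrine genes. No acinar gene of 14 was called. Of 16 reference genes RPL13A alone was called, at 11610 and 15183 in HCT116 against 2641 and 2508 in PANC1, and the list's median was -0.03. Of 74 ribosomal protein genes, which have many processed copies, RPL13A, RPL13, RPL15 and RPL22 were called, all higher in HCT116, and the median was 0.20. These calls were 5.48% of the list above the limit, near the 3.83% of all tested genes in that direction.

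The balance of the calls varied between chromosomes, with genes placed by their order in the RefSeq annotation of GRCh38.p14. Of 14512 tested genes that could be placed, 4.47% were called higher in HCT116 and 4.25% higher in PANC1. On chromosome 8 51 of 496 genes were higher in HCT116 and 8 in PANC1, on chromosome 4 39 of 512 and 11, and on chromosome 22 18 of 355 and 3. Chromosome 11 showed the opposite, with 22 of 837 genes higher in HCT116 and 72 higher in PANC1. A running median over 15 neighbouring genes, chosen after the values were seen, had its lowest value of -2.36 on chromosome 19. The stretch around it, from PSMD8 to LOC390933, held 41 tested genes, of which 22 were called higher in PANC1 and 1, RINL, higher in HCT116.

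Within the stretch of chromosome 19, PSMC4, a subunit of the proteasome, read 14991 and 12972 in PANC1 against 1201 and 788 in HCT116. PAF1, a subunit of a transcription elongation complex, read 7358 and 9708 against 832 and 842. SUPT5H, another elongation factor, read 6932 and 5461 against 757 and 720. These housekeeping genes were measured in both lines and 14.3-fold, 10.1-fold and 8.33-fold brighter in PANC1. The kinase PAK4 read 949 and 960 against 322 and 356, MED29, a Mediator subunit, was 10.9-fold brighter and PLEKHG2 11.6-fold brighter. DLL3, given above, lies in the same stretch between SUPT5H and EID2B. The differences were not uniform, since RPS16, a ribosomal protein gene between PLEKHG2 and SUPT5H, differed by -0.54 and EID2B by -0.39. The next stretch, at the end of the long arm of chromosome X from TMEM187 to WASIR1, held 32 tested genes, 10 of them called higher in PANC1 and none in HCT116. IRAK1, a kinase of interleukin signalling, read 6895 and 5233 in PANC1 against 1565 and 1205, and the membrane scaffold MPP1 read 1641 and 1298 against 240 and 276.

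A stretch of chromosome 8 from PTK2B to KCTD9P6 held 31 tested genes, of which 8 were called higher in HCT116 and none in PANC1. ELP3, the Elongator acetyltransferase, read 816 and 858 in HCT116 against 263 and 284 in PANC1. SARAF, a regulator of calcium entry, read 4193 and 5339 against 1464 and 1680, and the glutathione reductase GSR was 2.78-fold higher. MTAP lies on chromosome 9 beside CDKN2A and CDKN2B. All 3 neighbours were at background in both PANC1 columns and above the limit in both HCT116 columns, with CDKN2B at 179 and 218 against 131 and 129. On the side of MTAP away from CDKN2A, FOCAD (2.08-fold) and KLHL9 (2.30-fold) were called in the same direction with a signal above the limit in PANC1. Past CDKN2B, none of DMRTA1 (-0.38), CLIC4P1 (-0.14), TUSC1 (-0.48) and CAAP1 (0.62) was called. DNA copy number was not measured in these samples.

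**Figure D4:**
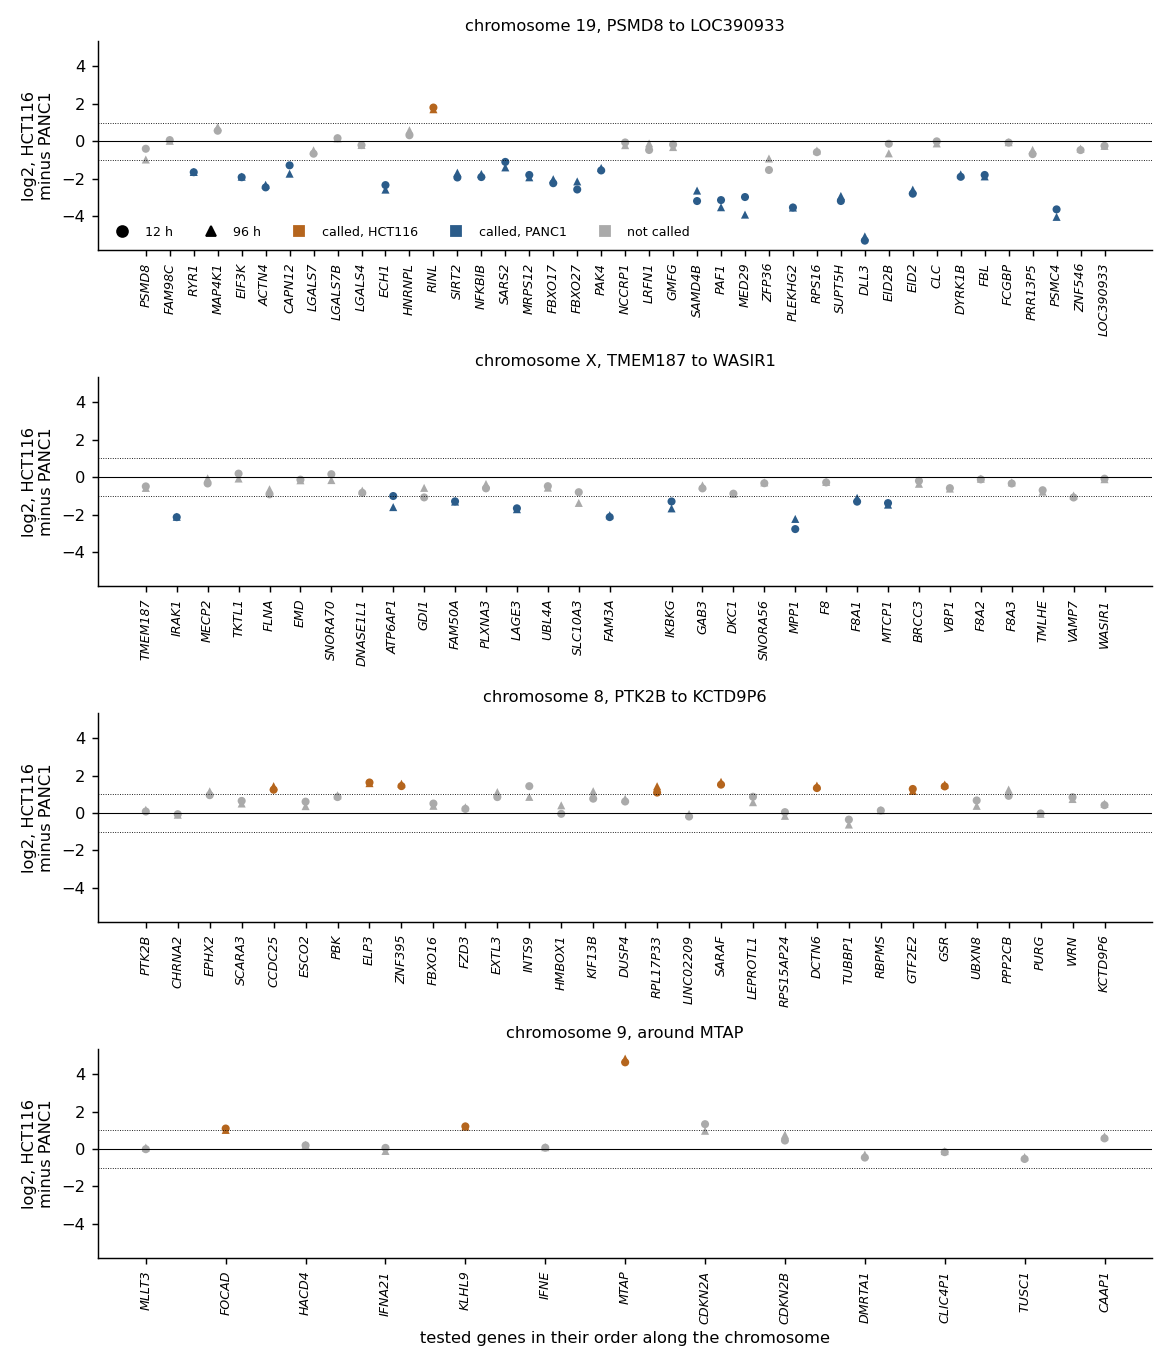
Log2 signal of HCT116 minus PANC1 (y axis) at 12 h (circles) and 96 h (triangles) for neighbouring tested genes (x axis) on chromosomes 19, X, 8 and 9, leaving out 1 gene of X. Blue genes were called higher in PANC1, brown genes higher in HCT116 and grey genes in neither. DLL3, undetected in HCT116, is the lowest point of the chromosome 19 stretch, and MTAP, undetected in PANC1, is the highest of chromosome 9.

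Promoter sequence was examined for the genes that were on in 1 line and undetected in the other, over the 250 bases before to 50 bases after the first RefSeq start listed for each gene. The letters CAGGTG are those bound by repressors of the ZEB and SNAIL families. The letters GGAATG are those bound by the TEAD partners of YAP. Each motif was counted on both strands, as written and as its reverse complement. CAGGTG was present in 36 of 101 promoters (35.6%) of genes higher in HCT116 that were at or under the limit in PANC1. It was present in 20.8% of 322 promoters of genes higher in HCT116 and measured in PANC1, in 21.5% of 93 promoters of genes higher in PANC1 and undetected in HCT116, and in 18.9% of all 10632 promoters of tested genes. The first set also held fewer CG pairs, with a median of 22 against 26 over all. GGAATG was present in 10.8% of the 93 promoters and in 1167 of all 10632. Of 15 tested genes of the YAP target list with a promoter to search 6 held it, and of the 5 called among them 1 did. Of the 20 tested epithelial genes that had a promoter to search, 10 held CAGGTG, against 3 of 18 tested mesenchymal genes. A match describes letters in a window and not a bound site.

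Of the called epithelial genes with a promoter to search, 6 of 11 held CAGGTG. Of the promoters printed here, RAB25 and CRB3 are examples with a match among the epithelial genes undetected in PANC1. GTSF1 is the widest difference of the HCT116 direction. The capitals mark CAGGTG on either strand, and each sequence runs 5′ to 3′ on the strand of its gene. They are RAB25 at chr1:156060910-156061209 on the plus strand, CRB3 at chr19:6464021-6464320 on the plus strand and GTSF1 at chr12:54473553-54473852 on the minus strand, from RefSeq on GRCh38.p14.
RAB25: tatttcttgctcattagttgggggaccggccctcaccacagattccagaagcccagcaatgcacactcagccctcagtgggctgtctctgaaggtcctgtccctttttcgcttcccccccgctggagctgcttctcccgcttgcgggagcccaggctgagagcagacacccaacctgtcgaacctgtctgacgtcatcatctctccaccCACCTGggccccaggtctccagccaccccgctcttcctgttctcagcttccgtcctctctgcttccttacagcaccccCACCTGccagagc
CRB3: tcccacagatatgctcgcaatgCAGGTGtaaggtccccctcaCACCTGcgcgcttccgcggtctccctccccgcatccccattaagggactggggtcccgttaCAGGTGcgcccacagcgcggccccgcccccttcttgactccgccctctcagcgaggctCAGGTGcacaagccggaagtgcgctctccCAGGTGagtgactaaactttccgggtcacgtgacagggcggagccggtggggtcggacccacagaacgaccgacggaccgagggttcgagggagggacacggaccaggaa
GTSF1: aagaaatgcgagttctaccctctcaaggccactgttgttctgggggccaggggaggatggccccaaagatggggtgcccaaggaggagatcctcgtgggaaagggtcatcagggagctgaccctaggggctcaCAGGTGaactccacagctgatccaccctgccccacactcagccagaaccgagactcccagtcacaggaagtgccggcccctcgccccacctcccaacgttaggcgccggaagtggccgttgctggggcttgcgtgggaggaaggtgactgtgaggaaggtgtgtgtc
RAB25 held 2 matches, CRB3 5 and GTSF1 1.

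For the genes of the PANC1 direction the capitals mark GGAATG on either strand. They are TM4SF1 at chr3:149377600-149377899 on the minus strand, VIM at chr10:17227991-17228290 on the plus strand and CCN2 at chr6:131951323-131951622 on the minus strand. TM4SF1 and VIM are shown as the widest difference and the defining mesenchymal gene, and CCN2 as the 1 called YAP target whose promoter held these letters.
TM4SF1: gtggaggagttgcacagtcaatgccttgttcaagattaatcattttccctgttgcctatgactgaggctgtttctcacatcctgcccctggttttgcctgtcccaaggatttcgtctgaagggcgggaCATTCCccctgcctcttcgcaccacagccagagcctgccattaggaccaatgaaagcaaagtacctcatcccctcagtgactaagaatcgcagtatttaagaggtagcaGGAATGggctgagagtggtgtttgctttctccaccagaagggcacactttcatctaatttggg
VIM: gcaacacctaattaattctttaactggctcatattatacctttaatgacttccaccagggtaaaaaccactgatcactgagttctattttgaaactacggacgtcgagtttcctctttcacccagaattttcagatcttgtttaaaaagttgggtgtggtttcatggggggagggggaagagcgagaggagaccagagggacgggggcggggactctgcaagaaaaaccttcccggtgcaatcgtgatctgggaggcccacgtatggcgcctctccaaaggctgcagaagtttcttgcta
CCN2: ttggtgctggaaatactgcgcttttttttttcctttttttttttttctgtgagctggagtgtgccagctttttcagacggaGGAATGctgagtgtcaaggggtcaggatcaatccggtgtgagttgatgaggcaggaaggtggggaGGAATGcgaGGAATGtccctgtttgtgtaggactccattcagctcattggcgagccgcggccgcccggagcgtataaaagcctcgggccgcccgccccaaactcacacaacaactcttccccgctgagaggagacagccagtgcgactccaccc
TM4SF1 held 2 matches, CCN2 held 3 and VIM held none. None of these 3 promoters held CAGGTG on either strand.

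The columns under inhibitors entered the normalization but not the calls, and they gave 4 further pairs of the same lines. Of the 1390 called genes, 1087 differed at least 2-fold in the same direction under ICG-001 at 12 h, 1015 under ICG-001 at 96 h, 1109 under C646 at 12 h and 1219 under C646 at 96 h. In these single pairs 9.68%, 9.19%, 8.56% and 9.75% of all tested genes differed 2-fold in either direction. A total of 811 called genes (58.3%) passed 2-fold in all 4 pairs, and 1373 kept their sign in all 4. VIM, measured in every column, ranged from -6.22 to -5.90 in these pairs. The genes were called for their size in the DMSO pairs, so a smaller size elsewhere is not by itself a change.

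The 17 called genes that changed sign in at least 1 inhibitor pair were the exception. UPP1, a uridine phosphorylase, was higher in PANC1 by 2.07 on the log2 scale in DMSO, and its difference was 0.74 under ICG-001 at 12 h and -0.33 at 96 h. NT5E went from -2.55 and -2.14 in DMSO to -0.81 and 0.23 under ICG-001. Under C646 the same genes stayed higher in PANC1, with UPP1 at -1.72 and -2.12 and NT5E at -1.79 and -1.18. A narrower gap without a change of sign was seen for PLAU, the urokinase, at -3.28 and -3.15 in DMSO and -1.72 and -1.09 under ICG-001, for KRT80 at -0.18 and -0.21 under ICG-001, and for FOSL1, an AP-1 subunit, at -0.68 and -0.30. The gap widened for CCL5, from -1.45 in DMSO to -4.46 under ICG-001 at 96 h. These genes were chosen after their values were seen, and the difference between conditions was not tested.

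**Figure D5:**
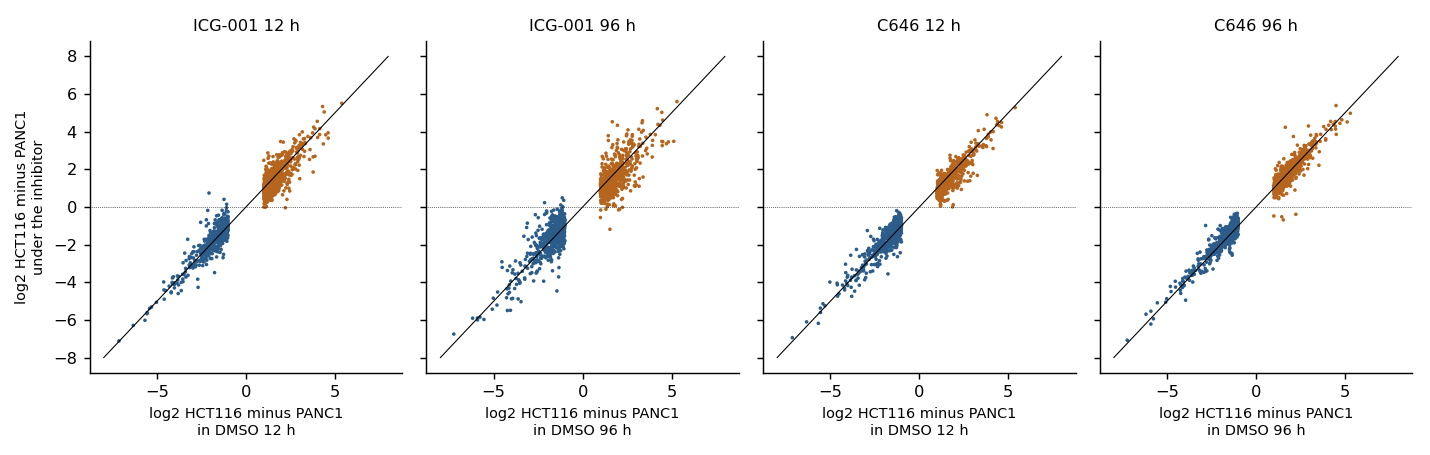
Log2 signal of HCT116 minus PANC1 in the DMSO pair of the same time (x axis) and in the inhibitor pair (y axis) for the 1390 called genes, 1 panel per inhibitor and time. The diagonal marks equal differences, brown genes were called higher in HCT116 and blue genes higher in PANC1. Most points follow the diagonal, and the fewest genes, 1015, kept 2-fold under ICG-001 at 96 h.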

How the data were processed

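RNA of each culture was hybridised to Illumina HumanHT-12 v4 BeadChips. The deposited values are signal intensities on a linear scale, which the authors quantile normalized in GenomeStudio without background subtraction and averaged over 2 arrays per DMSO group. Sorted log2 values differed by 0.0037 to 0.0093 on average between columns of a line and by 0.0628 to 0.0661 between lines, so the lines did not share a distribution. Whether the arrays of the lines were run together is not given in the sources used here. All 12 columns were therefore quantile normalized together on the log2 scale here. The detection limit was the peak of the background plus 2.33 SD of its lower side, and a call needed 2-fold at 12 h and at 96 h. The number of arrays limits the precision.

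The genes named are the 12 widest called differences per direction, CTNNB1, TCF7L2, CREBBP and EP300, and up to 4 members of each of 40 gene lists per direction with those that define a list. Genes whose inhibitor columns are described, chromosome stretches and promoters were chosen after the values were seen. The groups, lists and rules were all chosen with earlier results of these data known. Array names were matched to RefSeq symbols, 17755 rows by current symbol, 3305 by an older symbol and 2669 by gene identifier, and 10814 rows kept the array name. Of 312 genes with several tested rows, 38 had a called row, 9 were called alike in every row and 0 in opposite directions. The 1 list member with no row was DDX58. Alternatives were fold thresholds of 1.5 and 4, no limit, a limit at 5 SD, other normalizations, normexp with an offset of 16 and single times. Python 3.11.15, numpy 2.4.6, pandas 2.3.3 and, for normexp, limma 3.58.1 in R 4.3.3 were used, and the call procedure was tested on simulated data. No test entered the calls. Fits with limma (lmFit, then eBayes with a trend, Benjamini-Hochberg adjustment) were an alternative. Some genes and gene lists are not reported here.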

Additional observations from a re-analysis of the deposited data

Results flagged for a closer look

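PKM (pyruvate kinase), an enzyme of glycolysis, differed between the lines in opposite directions at the 2 times, by at least 1.5-fold each time. The log2 signal of HCT116 minus PANC1 was -0.59 at 12 h and 0.65 at 96 h. The array signal for HCT116 went from 1956 to 2641 between the times, and that for PANC1 from 2946 to 1684. The difference between the times was not tested, since each group holds 1 value. Under ICG-001 the signs were the same, at -0.89 and 0.48, and under C646 the values of PKM were -0.04 and 0.32.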

How the results depend on the processing

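Fits with limma over the 4 DMSO columns, chosen after seeing the data, took the 2 times as the 2 columns of a line, so their spread is that between times and not between cultures. With time as the replicate block, which pairs the lines by time and leaves 1 residual degree of freedom, 4211 genes were higher in HCT116 and 4232 in PANC1 at an adjusted p under 0.05, and without the block 3523 and 3489. The blocked fit took its variance from the trend over all genes alone, so the spread of each single gene did not enter it. All 1390 called genes passed in both fits, as genes chosen for a wide difference at both times would. No replicate was left out, since each group holds 1 column. With a threshold of 1.5-fold 1626 genes were higher in HCT116 and 1556 in PANC1, and with 4-fold 131 and 141. Normexp background correction gave 1442 and 1322, keeping all 1390 calls, and it raised the genes that turned between the times from 1 to 9, against 3 under median centring of the deposited values. The counts under the other alternatives were within 1.5 times of 729 and 661. They ranged from 605 to 1055 for HCT116 and from 660 to 906 for PANC1. Differences of the named genes stayed within the SD of the 2 times in 137 recomputations and moved beyond it in 31. Those at a single time had to stay, since either of 2 values lies within their SD of the mean. List medians stayed within the SD in 185 recomputations and moved in 135. The median over members above the limit was -0.59 for the mesenchymal list, -0.28 with no limit and -1.22 with normexp, and for HOXA it was 0.34, 0.73 with the limit at 5 SD and 1.03 with normexp. No called gene changed direction under any alternative run, and no list median of at least 1.5-fold in size did. Fold thresholds, limits, single times and the limma fits could not reverse a call, since a call needs both times in 1 direction. Only the other normalizations and normexp could have done so. Median centring moved the share of calls that were higher in HCT116 from 52.4% to 43.3%. The share of called genes that passed 2-fold in all 4 inhibitor pairs was 58.3% to 60.5% under the alternatives run. Quantile normalization of the DMSO columns alone could not be applied to it, since it leaves the inhibitor columns out. The lowest running median on chromosome 19 was -3.06 over 9 genes and -1.84 over 25, alternatives chosen after seeing the data. Signals close to the limit are compressed by the background that was not subtracted.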

Other observations

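Ribosomal RNA was among the rows whose line difference did not persist in every inhibitor pair. RNA28SN5, a copy of the 28S ribosomal RNA, read 408 and 510 in HCT116 in DMSO against 137 and 176 in PANC1. The 12 h value of PANC1 was under the detection limit. On the log2 scale the lines differed by 1.57 at 12 h and 1.54 at 96 h in DMSO. The same difference was 2.06 and -1.19 under ICG-001 and 0.36 and -0.69 under C646. The uncharacterised locus LOC100132394 followed, with 1.91 and 2.24 in DMSO, 1.79 and -0.02 under ICG-001 and 0.12 and -0.39 under C646. LOC100134364 differed by 1.19 and 1.00 in DMSO, by 1.43 and -0.56 under ICG-001 and by 0.05 and -0.48 under C646. These rows were chosen after their values were seen, and the differences between conditions were not tested. MT2A, a metallothionein, went from -1.34 and -1.11 in DMSO to -0.18 and 0.01 under ICG-001 and -0.52 and -0.35 under C646.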
